A study of Rattus norvegicus with 6 samples.

Results

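The genes described are the 5 simple epithelial keratins Krt7, Krt8, Krt18, Krt19 and Krt20 in the rat renal cortex. They were found on the array by the RefSeq transcript that each probe is annotated with, which gave 7 probes (1 for each gene, and 3 for Krt18) of 61657 non-control probes, and 5 of the 15278 genes that could be named. Of these, 4 genes were measured and Krt20 was not above background on any array. Expression was measured in 6 male Sprague-Dawley (Crl:CD(SD)) rats, bought at an age of 5 weeks and kept on a basal diet, with 1 single-colour array of Cy3-labelled cRNA for each animal. The control group was 3 rats given corn oil for 4 weeks (the labels call this group VC). The treated group was 3 rats given 2-amino-4-nitrophenol, an aromatic nitro amine used as a dye intermediate, at 750 mg/kg/day for 4 weeks. The tissue was whole cortex at 1 dose and 1 time, so that fewer cells of a type and less RNA per cell cannot be told apart. The genes were chosen by measured values of these same arrays, the difference of treated from corn oil rats, in Krt19 above all. Their group differences are therefore a description, with no test.

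Keratins are the intermediate filament proteins of epithelial cells. A filament is built from equal numbers of a type I chain (Krt18, Krt19 and Krt20 among these genes) and a type II chain (Krt7 and Krt8), and a chain without a partner is degraded. Krt8 with Krt18 is the basic pair of simple, single-layered epithelia. Krt7 and Krt19 are added to it in ducts, and in the kidney they are best known from the collecting duct, whereas Krt20 belongs to the surface cells of the urothelium and the gut. Krt8, Krt18, Krt19 and Krt20 have been described as raised in injured tubules.

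Values are log2 of the scanner's background-subtracted signal relative to the 75th percentile of the array. The percentile ranged from 743 to 852 signal units in corn oil rats and from 564 to 685 in treated rats, and 61.6% to 70.9% of the non-control probes were well above background. The first principal component of the tested genes held 40.1% of the variance and placed corn oil rats between -21.3 and -15.6, with treated replicates 1, 2 and 3 at 2.3, 30.4 and 23.2. One slide carried the 3 treated arrays in its second row and 2 corn oil arrays (replicates 1 and 3) in its first, so that group and row cannot be told apart there. Corn oil replicate 2 was alone on another slide. Proximal tubule markers such as the endocytic receptor Lrp2 and the glucose transporter Slc5a2, and the podocyte marker Nphs1, passed the background test on all 6 arrays, and these are cell types of the labelled cortex.

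Krt19, the type I chain with almost no tail domain, showed the largest difference of the measured members. Its log2 values were -1.13, -1.76 and -1.45 on corn oil replicates 1, 2 and 3, and 0.39, -0.26 and 0.044 on treated replicates 1, 2 and 3. The lowest treated array was above the highest corn oil array, so the groups did not overlap. The scanner signal itself was 390.0, 219 and 291 units in the corn oil rats against 900.3, 470.3 and 646 in the treated rats, and it did not overlap before scaling either. The group means were -1.45 ± 0.32 and 0.059 ± 0.33 (SD, n = 3), which gives a log2 difference of 1.504 ± 0.22 (SE, n = 3 per group), or 2.84-fold. Treated replicate 1 was the highest and treated replicate 2 the lowest of the dosed rats, and corn oil replicate 1 the highest of the controls. Ranked by log2 difference among the 11742 genes tested, Krt19 was number 53 from the top.

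Krt18, the type I partner of Krt8, was after scaling also higher in every treated rat by 2 of its 3 probes, by less than Krt19. Its brightest probe read 3.15, 3.16 and 3.10 on corn oil replicates 1, 2 and 3 against 3.89, 3.48 and 3.37 on treated replicates 1, 2 and 3, so the groups did not overlap. The corn oil arrays lay close together (SD 0.031), and replicate 1 was the highest of the treated arrays. The log2 difference was 0.44 ± 0.15 (SE, n = 3 per group), 1.36-fold, and 0.29 without treated replicate 1. The second probe read 2.43, 2.57 and 2.41 in corn oil against 3.21, 2.85 and 2.65 in treated rats, a difference of 0.43 ± 0.16 (SE) with no overlap. The third and dimmest probe read 0.87, 1.09 and 0.91 against 1.54, 1.05 and 0.95, a difference of 0.22 ± 0.17. On that probe only treated replicate 1 was above all corn oil arrays, while all 3 Krt18 probes ordered the treated rats alike, replicate 1 highest and replicate 3 lowest. Before scaling, the brightest probe read 7575, 6637 and 6817 signal units in corn oil rats against 10179, 6287 and 6473 in treated rats. Treated replicates 2 and 3 were thus below every corn oil rat there, as on both other probes. Unlike that of Krt19, the separation of Krt18 therefore rests on the scaling.

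Krt8, the type II chain that pairs with both of these, differed between the groups by less than the spread of either. It read 2.37, 2.24 and 2.20 on corn oil replicates 1, 2 and 3 and 2.41, 2.03 and 2.29 on treated replicates 1, 2 and 3. The treated arrays lay on both sides of the corn oil arrays, with treated replicate 2 the lowest of the 6. The means were 2.27 ± 0.089 and 2.24 ± 0.20 (SD, n = 3), a log2 difference of -0.027 ± 0.12 (SE).

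Krt7, the other type II chain, overlapped between the groups. It read 4.06, 4.16 and 3.9996 on corn oil replicates 1, 2 and 3 and 4.12, 4.63 and 4.36 on treated replicates 1, 2 and 3. Treated replicate 1 lay among the corn oil arrays, and replicates 2 and 3 above them. The log2 difference was 0.30 ± 0.14 (SE), 1.23-fold, and 0.17 without treated replicate 2. The treated rat with the highest Krt18 and Krt19 therefore had the lowest Krt7, and the rat with the highest Krt7 had the lowest Krt8 and Krt19.

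**Figure D1:**
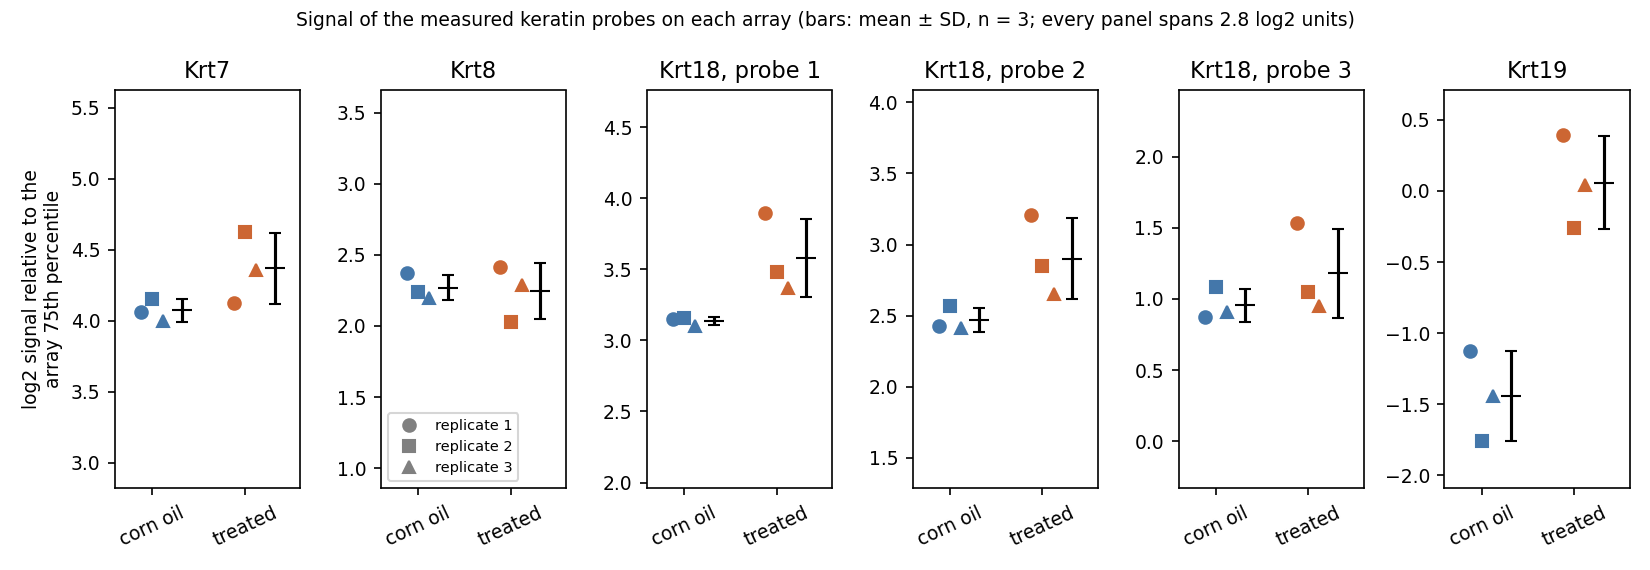
Log2 signal relative to the array 75th percentile (vertical axis) for the 6 measured keratin probes, with a point for each rat and black bars for the mean ± SD of 3 rats. Krt19 and the first 2 probes of Krt18 do not overlap between corn oil and treated rats, whereas Krt7, Krt8 and the third Krt18 probe do.

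Krt20 had no measurable level in either group. Its single probe read 3.10, 3.05 and 3.38 signal units on corn oil replicates 1, 2 and 3, and 3.58, 4.28 and 5.79 on treated replicates 1, 2 and 3. The lowest signal of any probe flagged well above background ranged from 10.8 to 12.9 units in corn oil rats and from 12.5 to 16.9 in treated rats, so all 6 readings lay under that limit and no fold is given. The treated readings are the higher ones, but below this limit their order carries no level.

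Of the 4 tested members, 0 had an adjusted p at most 0.05 in the limma fit over all genes, where 0.0255% of 11742 genes had one (0.017% higher and 0.00852% lower in treated rats). At an unadjusted p under 0.05 the members numbered 2, both higher, against 21.6% of all genes (14.3% higher, 7.29% lower). The arrays of the groups did not overlap for 2 of the 4, Krt18 and Krt19, against 30.2% of all genes. In both, every treated array was above every corn oil array, which held for 20.1% of genes, and the opposite held for 0 members and 10.1% of genes. The median log2 difference of the members was 0.37, beside 0.043 over all genes. These counts describe genes that the same comparison helped to choose, and nothing is read from them. Over probes, 0 of the 6 tested keratin probes and 0.0% of 40894 had an adjusted p at most 0.05 in limma, with 20.7% of all probes at an unadjusted p under 0.05 (11.3% higher, 9.43% lower). The groups did not overlap on 3 of the 6 keratin probes against 30.0% of probes, with the treated arrays above on all 3 (17.1% of probes) and below on 0 (12.9%).

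With the main scaling, bright probes were in general higher in the treated rats. Each member was therefore set beside genes of like signal, in 10 bins of 1174 or 1175 genes. Scaling on spike-in controls shifted the median log2 difference of all genes by -0.32, larger in size than the brightest bin's median of 0.23. The direction for bright probes thus depends on the scaling. Krt7 lies in the brightest bin, where the median log2 difference was 0.23 and the 10th and 90th percentiles were -0.072 and 0.44, and its own 0.30 was above 62.2% of those genes. Krt18 was above 94.5% of the genes in its bin, where the median was 0.13 and the 90th percentile 0.37. Krt8, a bin below Krt18, was above 26.1% of its bin, where the median was 0.098. Krt19 is much dimmer, in bin 4 from the bottom, where the median was -0.030 and the 90th percentile 0.35, and it was above 99.6% of those genes. Krt7 and Krt8 thus lay inside the central range of genes as bright as they are. Krt19, and Krt18 by its brightest probe, lay above it. The dimmest Krt18 probe, at 0.22, and the mean over the Krt18 probes, at 0.367, were under the 90th percentile of 0.370 in the bin of the brightest Krt18 probe. Both have less signal than that probe, so this bin is not matched to them.

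**Figure D2:**
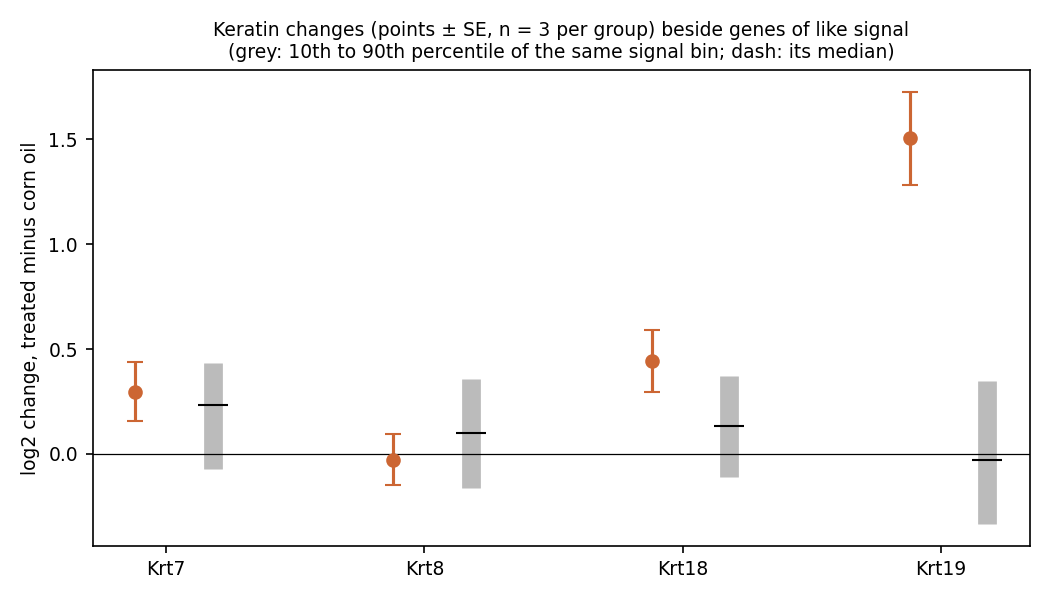
Log2 change, treated minus corn oil (vertical axis), of the 4 measured keratins as points with their SE (n = 3 per group), beside the 10th to 90th percentile range (grey) and median (dash) of the genes in the same bin of mean signal. Krt19 at 1.504 and Krt18 at 0.44, read by its brightest probe, lie above their grey ranges, Krt7 at 0.30 and Krt8 at -0.027 lie within theirs.

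Because partner chains are needed in equal numbers, the difference between 2 keratins within an array was followed, each gene first set to 0 at its corn oil mean. Such a difference does not depend on a scaling that uses 1 constant per array, although quantile normalization and normexp can move it. Krt18 minus Krt8 was -0.085, 0.049 and 0.037 on corn oil replicates 1, 2 and 3 and 0.61, 0.58 and 0.21 on treated replicates 1, 2 and 3. By this brightest Krt18 probe all treated rats had more Krt18 relative to Krt8 than any corn oil rat, with a treated mean of 0.47 ± 0.22 (SD, n = 3). The second probe gave 0.60, 0.62 and 0.16 in treated rats against -0.14, 0.13 and 0.015 in corn oil rats. The third gave 0.44, 0.34 and -0.021 against -0.18, 0.16 and 0.023, so by that probe treated replicate 3 lay among the corn oil rats. The comparison by the dimmer probes was chosen after seeing the data. Krt19 minus Krt8 was 0.22, -0.29 and 0.071 in corn oil rats and 1.70, 1.43 and 1.47 in treated rats. Its treated mean was 1.53 ± 0.14 (SD), and this difference varied less among the treated rats than Krt19 alone did (SD 0.33). Krt19 minus Krt7 was spread more widely: treated replicates 1, 2 and 3 stood at 1.79, 0.63 and 1.21 and the corn oil rats at 0.33, -0.40 and 0.073, again without overlap. Krt19 minus Krt18, both type I chains, was 1.08, 0.84 and 1.26 in treated rats against 0.30, -0.34 and 0.034 in corn oil rats. Its treated SD of 0.21 was also under that of Krt19 alone, so the smaller spread is not particular to Krt8. Krt7 minus Krt8, the 2 type II chains, overlapped: it was -0.092, 0.79 and 0.27 in treated rats and -0.11, 0.11 and -0.0016 in corn oil rats. Krt19 was thus higher relative to Krt8 in each treated rat, and Krt18 by 2 of its 3 probes, while for Krt7 relative to Krt8 treated replicate 1 lay among the corn oil rats. Krt19 was chosen by its group difference, so its separation from members that differed less follows largely from that choice. The share of all gene pairs that separate in this way was not computed, and these differences are a description.

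**Figure D3:**
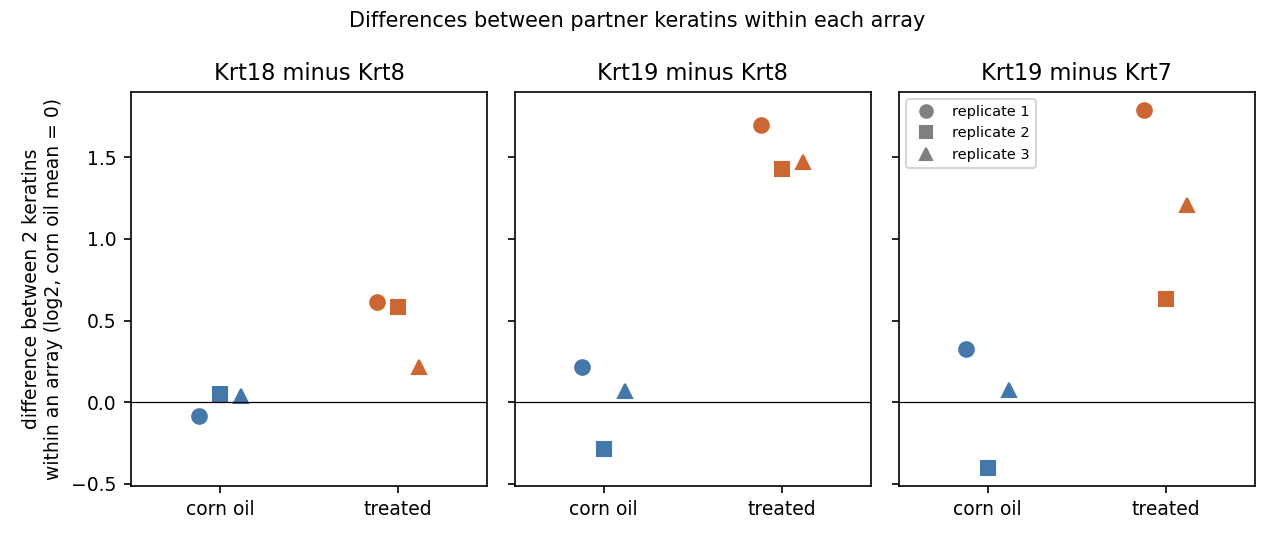
Difference between 2 keratins within each array on a log2 scale, with the corn oil mean at 0 (vertical axis) and a point for each rat. The treated rats lie at 0.21 to 0.61 for Krt18 minus Krt8, 1.43 to 1.70 for Krt19 minus Krt8 and 0.63 to 1.79 for Krt19 minus Krt7, each above all corn oil rats, with Krt18 read by its brightest probe.

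Krt8 and Krt18 are the one pair of type II and type I keratin genes that lie side by side, and their 250 bases upstream of the RefSeq gene start are shown because the pair had unlike group differences here. RefSeq's table for the GRCr8 assembly held a promoter for 3 of the 5 members, Krt8, Krt18 and Krt20. Each sequence is written 5′ to 3′ on the strand of its gene, with matches to 5 searched motifs in capitals. The Krt8 sequence is chr7:135010340-135010589 on the minus strand, Krt18 is chr7:135035918-135036167 on the plus strand, and Krt20, the member without measurable signal, is chr10:84890286-84890535 on the minus strand.
Krt8: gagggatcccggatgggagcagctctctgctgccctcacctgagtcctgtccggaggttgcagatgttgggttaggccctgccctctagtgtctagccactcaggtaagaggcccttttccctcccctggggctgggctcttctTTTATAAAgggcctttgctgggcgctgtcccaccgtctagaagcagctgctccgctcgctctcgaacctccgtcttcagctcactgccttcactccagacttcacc
Krt18: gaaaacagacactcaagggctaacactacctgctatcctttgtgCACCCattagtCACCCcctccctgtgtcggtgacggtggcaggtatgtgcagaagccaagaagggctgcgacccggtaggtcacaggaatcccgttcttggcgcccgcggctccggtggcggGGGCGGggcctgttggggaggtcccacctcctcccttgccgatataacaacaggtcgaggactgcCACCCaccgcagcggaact
Krt20: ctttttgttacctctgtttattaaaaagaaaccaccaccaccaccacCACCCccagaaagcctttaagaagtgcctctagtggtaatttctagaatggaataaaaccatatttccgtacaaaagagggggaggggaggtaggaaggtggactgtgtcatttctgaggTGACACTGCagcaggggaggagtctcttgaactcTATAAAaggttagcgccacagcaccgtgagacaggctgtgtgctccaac
The motifs were the TATA box core TATAAA, the GC box GGGCGG, the AP-1 element TGANTCA, the antioxidant response element core TGACNNNGC and the CACCC box CACCC, each on both strands. The Krt8 capitals are a TATA box core read on each strand, 2 overlapping matches from -106 to -99 of the gene start. The Krt18 capitals are 1 GC box from -84 to -79 and 3 CACCC boxes, and this promoter held no TATA box core. The Krt20 capitals are a TATA box core from -49 to -44, a CACCC box, and 1 match to the antioxidant response element core from -83 to -75. Of 33469 promoters of this length, 12.9% held the TATA box core, 30.5% the GC box, 6.34% the AP-1 element, 10.1% the antioxidant response element core and 49.2% the CACCC box. A letter match is not a bound site, and the paired genes Krt8 and Krt18 share none of the 5 motifs in these windows. G and C made up 60.0% of the Krt8, 62.0% of the Krt18 and 47.2% of the Krt20 sequence.

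Keratins of layered epithelia and other sites were measured as a list of 19 genes, of which 14 had a named probe and 7 were tested. None of the 7 passed (limma, Benjamini-Hochberg adjustment, lowest adjusted p = 0.116), while an unadjusted p under 0.05 was reached by 1 that was higher and 2 that were lower, and their median log2 change was -0.16. Krt4, a type II keratin of the lining of the mouth and oesophagus, read -4.43, -4.36 and -4.32 in corn oil rats and -2.31, -2.48 and -3.90 in treated rats. All treated arrays were above the corn oil arrays, treated replicate 3 only just, and the log2 change was 1.48 ± 0.41 (SE; adjusted p = 0.147). Krt14, a type I keratin of basal cells, went the other way, at -3.55, -3.67 and -3.52 against -4.08, -3.92 and -4.04, with a log2 change of -0.44 ± 0.087 (adjusted p = 0.116). Krt15, also a basal cell type I keratin, had -0.49 ± 0.11 (adjusted p = 0.127), without overlap, and Krt80 had -0.49 ± 0.23 (adjusted p = 0.269). Of the 7 tested genes, 1 had all treated arrays above all corn oil arrays and 2 all below, against 20.1% and 10.1% of all genes. Of the 7 genes with a probe and no test, Krt2, Krt9, Krt16, Krt17 and Krt24 were above background on no array. The remaining type I gene tested, Krt23, had 0.29 ± 0.29 with groups that overlapped, so the type I keratins of this list had values of both signs and none passed.

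Other intermediate filament genes were a list of 15, with 9 tested, 0 called and a median log2 change of 0.0098. Vimentin (Vim), the filament of mesenchymal cells and of dedifferentiated tubule cells, had 0.0069 ± 0.16 (SE; limma adjusted p = 0.985). It is given as the best known of the list, outside the rule for named genes. The highest were the neurofilament gene Nefm (0.78 ± 0.25), synemin (Synm, 0.41 ± 0.12) and lamin A/C of the nuclear envelope (Lmna, 0.30 ± 0.075), all at an unadjusted p under 0.05, with adjusted p of 0.174, 0.149 and 0.134. Their treated arrays were all above the corn oil arrays, which held for 20.1% of all genes. The other Lmna probes gave 0.052 to 0.29. Lmnb1, lamin B1, had -0.31 ± 0.24.

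Desmosome and linker genes, whose products anchor keratin filaments to the cell surface, were a list of 15 with 8 tested and 0 called. Their median log2 change was -0.18, and 1 of the 8 was positive, beside 57.4% of all genes. That one was plakophilin 2 (Pkp2), at 0.40 ± 0.12 (SE; limma adjusted p = 0.153), while its other probe gave -0.011. Periplakin (Ppl), which links filaments to the cornified envelope and desmosomes, had -0.37 ± 0.12 (adjusted p = 0.166). Envoplakin (Evpl) had -0.27 ± 0.19 and the hemidesmosome integrin Itgb4 -0.14 ± 0.092.

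Genes for proteins that bind or regulate keratins were a list of 10, with 8 tested, 0 called and a median of 0.052. Trichoplein (Tchp), a keratin-binding protein of desmosomes and centrioles, had the least spread among its treated arrays in this list. It read -0.31, -0.43 and -0.26 in corn oil rats and -0.75, -0.72 and -0.74 in treated rats. Its log2 change was -0.40 ± 0.079 (SE; limma adjusted p = 0.116), and its other probe gave -0.52. Pinin (Pnn) had -0.26 ± 0.084, with -0.080 and -0.070 by its other probes. The keratin chaperone Dnajb6 had 0.21 ± 0.081, with 0.062 and 0.097 by its other probes, and the ubiquitin ligase Stub1, which takes part in the turnover of keratins, 0.13 ± 0.072. Transcription factors of epithelial differentiation were a list of 12, with 11 tested, 0 called and a median of -0.17. Klf5, which is expressed in the collecting duct, had 0.41 ± 0.11 (adjusted p = 0.144), Grhl2 -0.30 ± 0.11 with its other probes from -0.69 to 0.95, and Tfap2a -0.47 ± 0.19. Cdx2 had -0.61 ± 0.33, but was well above background on 3 corn oil arrays and 1 treated array. It was thus kept only through the group where it was higher, and nothing is read from its value.

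**Figure D4:**
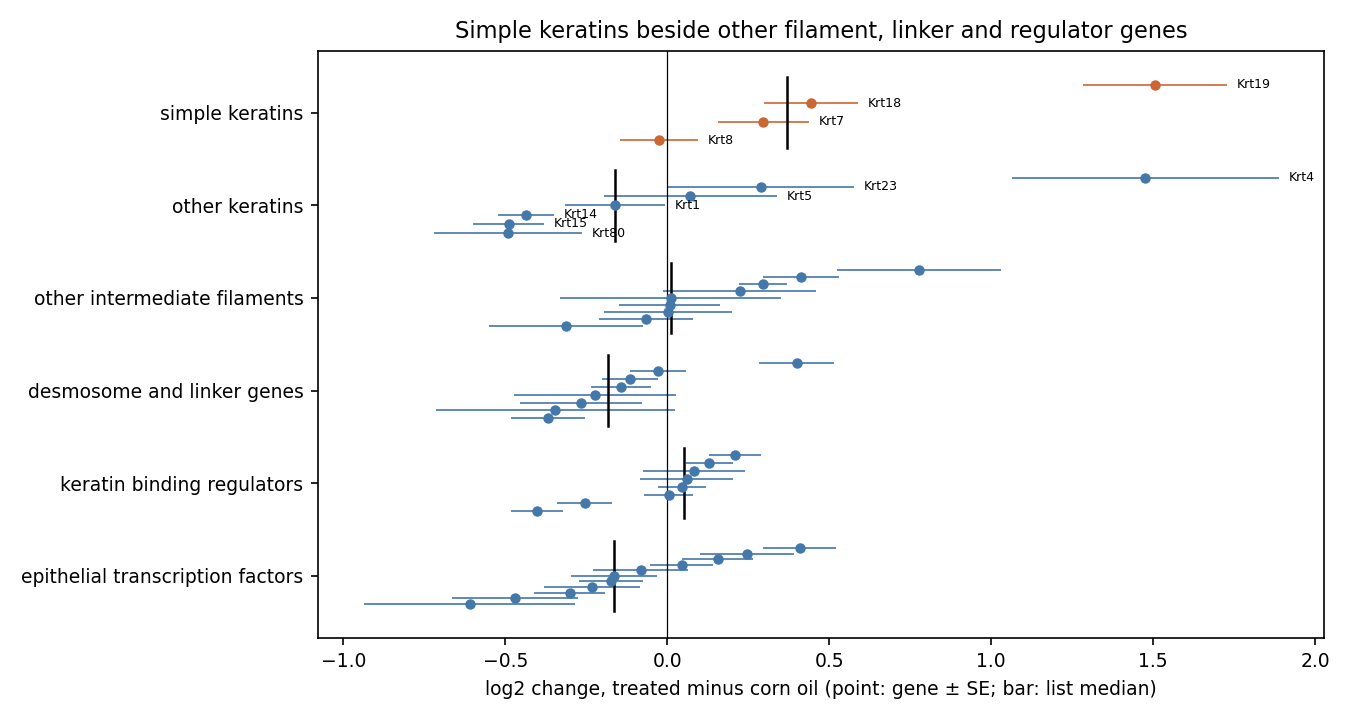
Log2 change, treated minus corn oil (horizontal axis), of every tested gene (point ± SE, n = 3 per group) in the simple keratins and 5 companion lists, with a black bar at each list's median. Krt19 at 1.504 and Krt4 at 1.48 stand to the right of the other genes shown, while the list medians lie between -0.18 and 0.37.

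Markers of the cell types that carry these keratins are given beside them, and their part in the keratin values was not tested. Of 8 collecting duct principal cell markers 7 were tested, with 0 called, a median log2 change of -0.28 and a summed level of 201 to 218 times the 75th percentile in corn oil rats against 163 to 218 in treated rats. The water channel Aqp2 had 0.18 ± 0.16 (SE), Hsd11b2, which protects the cell from glucocorticoids, -0.39 ± 0.0996 and the sodium channel subunit Scnn1g -0.45 ± 0.15. The median deviation of these markers was -0.13, -0.26 and -0.48 on treated replicates 1, 2 and 3, and -0.093, 0.094 and -0.029 on the corn oil arrays. All treated arrays were below all corn oil arrays on this measure, replicate 1 by the least. The summed level of treated replicate 1 was within the corn oil range, most of it from Aqp2. Intercalated cell markers (8 of 8 tested) had a median of 0.11, with 6 of the 8 positive by their brightest probe, beside 57.4% of all genes. Of these, Foxi1 had 0.00094 with -0.29 and -0.23 by its other probes, and Aqp6 0.18 with -0.22 by its other probe. The proton pump subunit Atp6v1g3 had 0.28 ± 0.12 and the anion exchanger Slc4a1 0.51 ± 0.23, with 0.13 and 0.23 by their other probes, while Slc26a4 had -0.20 ± 0.16 and Slc4a9 -0.22 ± 0.24. The list summed to 151 to 184 in corn oil rats and 159 to 205 in treated rats. Distal convoluted tubule and connecting tubule markers (5 of 7 tested) had a median of -0.37, with the sodium chloride cotransporter Slc12a3 at -0.53 ± 0.16 (other probes -0.52 and -0.13), Slc8a1 at -1.19 ± 0.36 (other probes from -0.48 to -0.44) and Calb1 at -0.37 ± 0.19. They summed to 190 to 199 in corn oil rats and 181 to 224 in treated rats, most of it from the 1 gene of the 5 with a positive value. Markers of the thick ascending limb (5 of 6 tested) had a median of 0.35 and summed to 300.4 to 332 in corn oil rats and 384 to 484 in treated rats, most of it from uromodulin (Umod, 0.45 ± 0.12). Cldn16 and Cldn10 were also positive (0.35 ± 0.19 and 0.43 ± 0.28), and Kcnj1 and Egf were negative (-0.16 ± 0.10 and -0.19 ± 0.11).

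Urothelium and mesothelium are both rich in these keratins. Of 7 urothelial markers 5 were tested, with a median log2 change of -0.19, and the sum was 7.59 to 8.37 in corn oil and 7.57 to 9.25 in treated rats, most of it Tp63. The defining uroplakin Upk2 was above background on 0 of 6 arrays, and Upk3a had -0.46 ± 0.20 (SE), with -1.81 by its other probe. Of 4 mesothelial markers 2 were tested, and mesothelin (Msln) and Calb2 summed to 0.17 to 0.26 in corn oil and 0.093 to 0.14 in treated rats. Msln had a log2 change of -1.70 ± 0.41 (limma adjusted p = 0.130), and Calb2 had -0.55 ± 0.18. Msln was well above background on 3 corn oil arrays and 1 treated array. It was thus kept only through the group where it was higher, and nothing is read from its value or from the sum that holds it. Among proximal tubule markers (8 of 8 tested, median -0.069, sum 1155 to 1258 against 1208 to 1263), Lrp2 had -0.34 ± 0.097, Slc5a2 -0.15 ± 0.12, Slc5a12 -0.50 ± 0.18 and Cubn -0.52 ± 0.21, with -0.64 by the other Lrp2 probe. The other 4 of the 8 were positive by their brightest probes: Slc34a1 had 0.19 ± 0.081 and Slc22a6 0.14 ± 0.082, both with all treated arrays above all corn oil arrays, Slc22a8 0.056 ± 0.085 and Aqp1 0.015 ± 0.083. By their other probes Slc34a1 had 0.0097, Slc22a6 -0.039 and Slc22a8 -0.095, so these rises rest on 1 probe each. The other probes of Slc5a2 (-0.31 and -0.094) and Slc5a12 (-0.52) stayed negative. For 2 of the 8, Lrp2 and Slc5a12, all treated arrays were below all corn oil arrays. Over all genes, 20.1% were above in this way and 10.1% below.

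Of 10 markers of injured tubules 7 were tested, with 0 called and a median of 0.15, and they summed to 72.5 to 78.0 in corn oil and 69.5 to 81.1 in treated rats. Krt19 is often listed with this group. Havcr1, the gene of kidney injury molecule KIM-1, was above background on 2 arrays of each group and was not tested. Lcn2 had a log2 change of 0.81 ± 0.84, Vcam1, an adhesion molecule of tubule cells that fail to recover, 0.35 ± 0.20 and Clu -0.61 ± 0.23 (limma adjusted p = 0.206). Of the 7 tested, 6 had a positive value by their brightest probe (57.4% of all genes did) and Clu alone a negative one. By other probes Cd24 (0.048) had -0.13 and Prom1 (0.22) from -0.034 to 0.10, while Clu had -0.53. In all 7 the groups overlapped (in 30.2% of all genes they did not). Endothelial (median 0.060), fibroblast (0.046) and leukocyte (-0.097) markers had 0 called genes. The podocyte gene Nphs1 had -0.29 ± 0.14. Of the first-listed pairs of the other lists, Pecam1 had 0.061 ± 0.078 and Cdh5 0.28 ± 0.15 (by their other probes -0.47 and -0.17), Pdgfra 0.16 ± 0.072 and Col1a1 -0.0016 ± 0.33, and Ptprc -0.23 ± 0.17 (other probes from -0.73 to -0.31) and Cd68 0.035 ± 0.14.

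The genes with the most similar pattern over the 6 arrays were sought among 11056 genes that were well above background on every array, by the root mean square difference of log2 values after each gene was centred on its mean. For Krt19 the nearest were Aadac, an esterase of the endoplasmic reticulum (0.11 log2 units; log2 change 1.56 ± 0.22 SE), the phosphatase Ppm1j (0.17; 1.72 ± 0.27) and the beta globin Hbb-b1 (0.20; 1.15 ± 0.26). Aadac read -0.92, -1.43 and -1.44 in corn oil rats and 0.59, -0.069 and 0.37 in treated rats, the same order as Krt19 among the treated rats. For Krt18 they were Ebf4 (0.055), Abhd4 (0.058) and Sik1 (0.075), for which treated replicate 1 was likewise the highest array. For Krt7 they were the ribosomal protein genes Mrps12 (0.019) and Rps4x (0.022) and the phospholipase Pla2g3 (0.025), all highest on treated replicate 2. For Krt8 they were Dhtkd1 (0.021), RGD1564712 (0.029) and Dgka (0.032), all lowest on treated replicate 2. The 4 measured keratins thus had no nearest gene in common. With 6 arrays and so many genes, some close matches arise in any data, and a match is a description of these arrays.

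The Krt19 difference kept its direction under all 16 alternative analyses, from 1.19 with scaling on spike-in controls to 1.66 without treated replicate 2. Some of these could not move it. Krt19 has 1 probe, well above background on all 6 arrays, so the other filters and the mean over probes returned 1.504. So did the replicate block, which has 1 array of each group per number, and the value table holds the same scaled signals. With the slide as a block, which leaves the comparison within the shared slide, Krt19 was 1.35 ± 0.22 (SE), Krt18 0.45 ± 0.18, Krt7 0.34 ± 0.17 and Krt8 -0.040 ± 0.15. Spike-in scaling lowered the median of all genes by 0.32 (shift of -0.32). Under it Krt7 was -0.023, Krt8 -0.35 and Krt18 0.12, and 1 of the 4 members kept all treated arrays above all corn oil arrays (1.31% of all genes did), so the direction of Krt7 depends on the scaling. Relative to the median of all genes, the spike-in values were 0.25 for Krt7, -0.070 for Krt8, 0.40 for Krt18 and 1.46 for Krt19. They equal those of the main scaling by construction, since both scalings use 1 constant per array, so nothing is read from their equality. The list medians of the other intermediate filament genes and of the keratin-binding genes were -0.31 and -0.27 under spike-in scaling, so their sign turned with the scaling too. The shift of -0.32 was also larger in size than the positive medians of the intercalated, injured tubule, endothelial and fibroblast lists, whose sign thus depends on the scaling. It was smaller than the thick ascending limb median of 0.35.

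**Figure D5:**
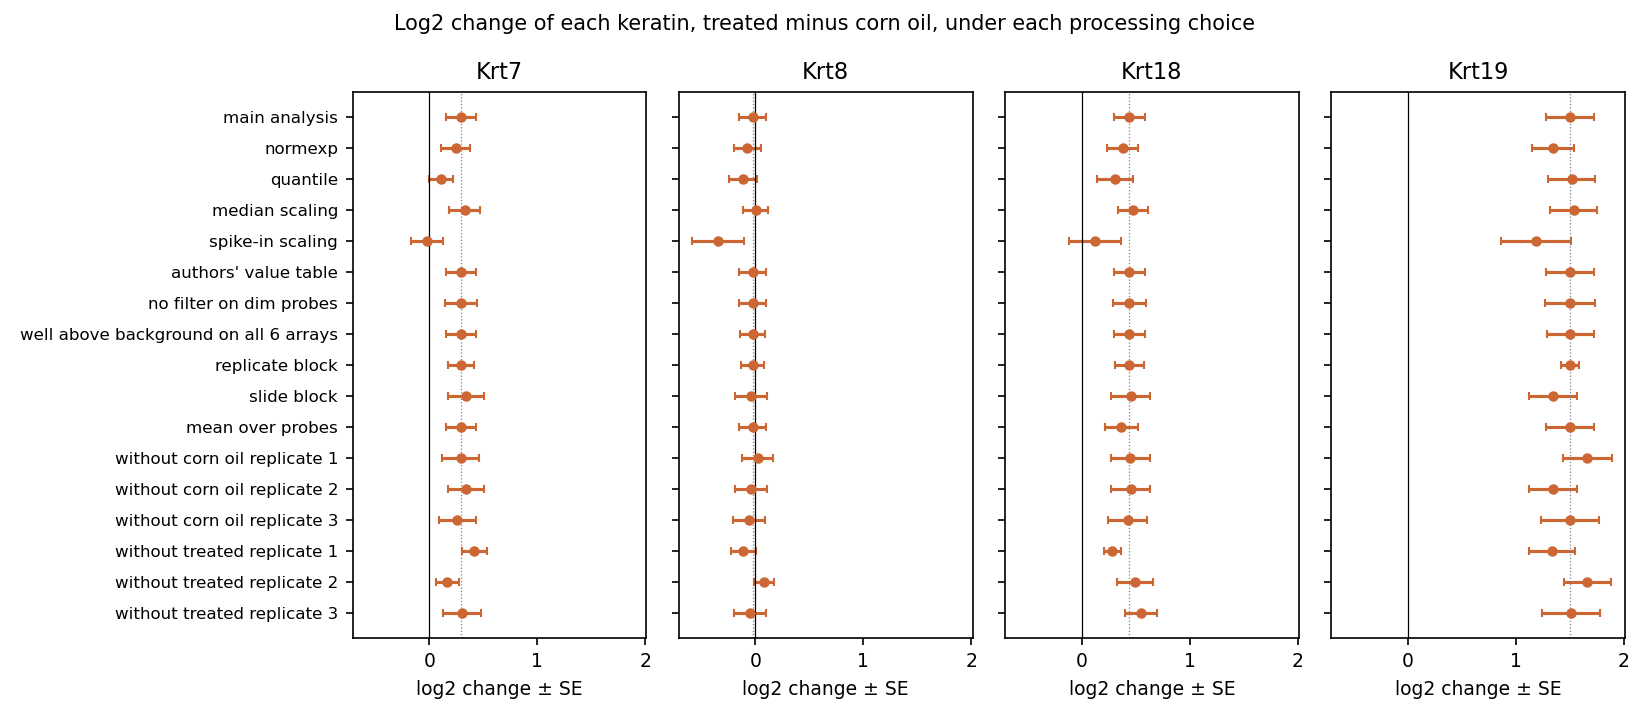
Log2 change of Krt7, Krt8, Krt18 and Krt19, treated minus corn oil (horizontal axis, ± SE), under each processing choice (rows), with a dotted line at the main value. Krt19 stays between 1.19 and 1.66, while Krt7 and Krt8 lie on either side of 0 depending on the scaling or the rat left out.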

How the data were processed

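Renal cortex RNA of 6 rats was measured on Agilent arrays in 1 colour. Per the file headers, the authors deposited spot intensity on a linear scale, background-subtracted by Feature Extraction 10.7.1.1 (10.7 per the submitters' processing notes), with 0 or 1 flags. Their deposited value table is a ratio of intensity to the array's 75th percentile. Its columns equal scanner files of the right group but a different replicate (0 of 6 matched their own number), so replicates are numbered here by scanner file.

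Log2 intensity minus the array's 75th percentile was computed here. Outlier-flagged probes (64) were dropped, and 40894 probes were tested, each flagged as above background throughout 1 or both groups. RefSeq accessions and a GRCr8 gene table named 27447 probes (44.5%). The array grid names rn4, so gene coordinates are not given. The brightest kept probe represented its gene. limma 3.58.1 (R 4.3.3; lmFit, eBayes, no block) gave SE and p, with Benjamini-Hochberg adjustment over 11742 genes and a threshold of 0.05. The fit was tested on simulated data. The series calls the 3 rats per group biological replicates, and their number limits the precision.

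Named genes are the members, up to 4 of lowest p per companion list, the first 2 and up to 2 of lowest p per cell type list, and the 3 nearest patterns per member; Vim, Krt23 and further cell type genes were added after their values were seen. One gene of the cell type lists is not reported here. The members and lists were chosen with earlier results of these data known. Alternatives were normexp (offset 50), quantile, median and spike-in scaling, the value table, other filters, replicate and slide blocks, the mean over probes, dimmer probes, a threshold of 0.1 and each array left out. Replicate numbers do not pair the arrays: deviations of same-numbered arrays correlated at 0.0065, -0.050 and -0.032.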

Additional observations from a re-analysis of the deposited data

How the results depend on the processing

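The count of called genes (3 of 11742) was 56 with normexp, 9 with spike-in scaling, 132 at an adjusted p of 0.1, and 0 with no filter on dim probes (3494 genes at an unadjusted p under 0.05), with the mean over probes (2441), with the slide as a block (1764) and with the replicate block (2121). Leaving out 1 array gave 0 to 70 genes: 21 when treated replicate 1 was dropped, 70 when treated replicate 2 was, 2 when treated replicate 3 was, and 0 for each of the corn oil arrays. Called probes (0) were 4 with normexp and 0 to 91 with 1 array left out. The members' median (0.37) was 0.21 after quantile normalization and 0.051 with spike-in scaling. Of the members, 1 (Krt19) was called with normexp and at an adjusted p of 0.1, and 0 under the other scalings, filters, blocks and left-out arrays. The companion lists held 0 called genes, and 1 (Krt4) without treated replicate 3. The replicate block, for numbers that share only a name, left the median of the members at 0.37. Krt18 was 0.12 with spike-in scaling and 0.22 from its dimmest probe. Krt8 was positive, at 0.0050, 0.023 and 0.081, with median scaling, without corn oil replicate 1 and without treated replicate 2. A match of probes by gene name was not run, since the scanner files used here hold no such column. Signal over background limits Krt20, which has no level here, and the dim keratins Krt4, Krt14 and Krt15. It also limits Cdx2 and Msln, each well above background on 1 treated array.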
